A study of Mus musculus with 6 samples.

Results

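MHC class II antigen presentation genes were described in liver NK cells of mice with fibrosis, sorted into a CD36+ NK and a CD36- NK fraction. The 10 genes were taken by symbol from a table of 57180 genes and were H2-Aa, H2-Ab1, H2-Eb1, Cd74, Ciita, H2-DMa, H2-DMb1, H2-DMb2, H2-Oa and H2-Ob. Each group had 3 RNA-seq libraries. Both groups came from livers of male C57BL/6J mice, aged 6 to 8 weeks, that received 20% CCl4 (carbon tetrachloride, a liver toxin) in olive oil at 2.5 ml/kg by intraperitoneal injection 2 times per week for 4 weeks and were killed 48 h after the last injection. No mouse without CCl4 entered the comparison, and no transgene or deletion was used. The paper's flow cytometry defined NK cells as CD3- and NK1.1+. The fractions were split by CD36, a receptor that takes up lipids, and the paper gives no separate gate for the sort.

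MHC class II molecules carry peptides from the endosome to the cell surface, where CD4+ T cells read them. H2-Aa and H2-Ab1 encode the alpha and beta chains of I-A, and H2-Eb1 encodes the beta chain of I-E. Cd74 encodes the invariant chain, a chaperone that fills the groove until it is degraded. H2-DMa with H2-DMb1 or H2-DMb2 forms H2-M, which exchanges the remaining fragment for peptides, and H2-Oa with H2-Ob forms H2-O, which restrains H2-M. Ciita encodes the coactivator that binds a set of promoter-bound factors (RFX, NF-Y and CREB) and switches these genes on together. B cells, dendritic cells and macrophages are the professional class II presenting cells, and resting mouse NK cells are not among them.

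Class II genes are known to share promoter elements, so the stretch just before the start is shown for the members in which the reversed CCAAT word of the Y box was found. RefSeq promoters of build GRCm38.p6, covering 250 bases before to 50 bases after the start, were at hand for 7 of the 10 members and not for H2-Ab1, Cd74 and Ciita. Capitals mark TGATTGG, the Y box word, and AACNNATGA, a stretch of the X box bound by RFX. Each line reads 5′ to 3′ on the gene's strand and holds 70 bases, all of them before the start.
H2-Aa: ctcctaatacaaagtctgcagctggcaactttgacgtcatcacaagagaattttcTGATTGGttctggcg
H2-Eb1: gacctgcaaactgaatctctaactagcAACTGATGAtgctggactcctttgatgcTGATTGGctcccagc
H2-DMb1: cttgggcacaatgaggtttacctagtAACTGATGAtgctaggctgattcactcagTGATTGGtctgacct
H2-DMb2: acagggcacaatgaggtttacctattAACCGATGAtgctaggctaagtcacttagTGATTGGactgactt
H2-Oa: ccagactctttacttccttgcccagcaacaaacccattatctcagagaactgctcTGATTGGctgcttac
H2-Ob: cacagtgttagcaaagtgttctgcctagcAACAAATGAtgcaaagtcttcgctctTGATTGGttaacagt

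These windows lie at chr17:34287859-34287928 for H2-Aa on the minus strand, and on the plus strand at chr17:34305751-34305820 for H2-Eb1, chr17:34153073-34153142 for H2-DMb1, chr17:34145102-34145171 for H2-DMb2, chr17:34092279-34092348 for H2-Oa and chr17:34238791-34238860 for H2-Ob. TGATTGG was found in 6 of the 7 members, and in 7.82% of all 32851 RefSeq promoters searched on both strands. The exception was H2-DMa, in neither of whose promoters these letters occurred. AACNNATGA was found in 4 members, H2-Eb1, H2-DMb1, H2-DMb2 and H2-Ob, and in 2.85% of all promoters. Both words stood together in 0.307% of all promoters, and the gap between them was 19 bases in H2-Eb1, 20 in H2-DMb1, 20 in H2-DMb2 and 17 in H2-Ob. The words do not overlap each other and were chosen after these promoters had been read, so the counts are a description of the sequences and not evidence of binding.

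Libraries held 10292480 to 13787189 counts. Cd36 itself had 1232, 3569 and 2859 counts in the libraries titled CD36+ and 186, 359 and 175 in those titled CD36-. The names of the sequenced libraries give the sign of CD36 differently from the titles, and the titles were followed. The NK label was checked against 10 NK cell markers, which were present in every library but summed to 975 to 1183 CPM (counts scaled to library size, with TMM factors) in CD36+ NK against 5125 to 6657 CPM in CD36- NK. All 10 NK cell markers fell in CD36+ NK by the study's criterion (adjusted p under 0.05 and over 2-fold, by edgeR), with a median log2 fold change of -2.48, where 2.98% of tested genes fell. The most abundant were Gzma, a granzyme, at -2.57 ± 0.13, Il2rb, an interleukin receptor chain, at -2.20 ± 0.19 and Prf1, perforin, at -2.51 ± 0.14. Ncr1, an activating receptor of NK cells, was at 69.8, 97.6 and 67.3 CPM in CD36+ NK and 394, 419 and 455 CPM in CD36- NK. Klrb1c, which encodes the NK1.1 antigen in the paper's definition of NK cells, was at 83.1, 106 and 77.9 CPM against 495, 448 and 524 CPM. Markers of B cells were abundant in both fractions.

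All 10 class II genes passed the filter on low counts, and all 10 had higher CPM in each CD36+ NK library than in any CD36- NK library. The differences were small. By edgeR's quasi-likelihood test, none of the 10 met the study's criterion for a differentially expressed gene, an adjusted p under 0.05 with a change above 2-fold, which 5.96% of the 14761 tested genes met. All 10 had an unadjusted p under 0.05. Without the fold threshold, 4 of the 10 passed an adjusted p of 0.05, namely H2-Eb1, H2-Aa, Cd74 and H2-DMb1, where 5.07% of tested genes rose by that rule. The median log2 fold change over the 10 genes was 0.41, and that of all tested genes was 0.01 with a middle range of -0.19 to 0.27. Of all tested genes, 17.0% had every CD36+ NK library above every CD36- NK library, and 14.2% were higher at an unadjusted p under 0.05. The members with an adjusted p under 0.05 numbered 3 without CD36+ NK replicate 1, 0 without replicate 2 and 1 without replicate 3, and 3, 3 and 2 without CD36- NK replicates 1, 2 and 3.

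The 10 genes together took 1.15%, 1.22% and 1.15% of all counts in CD36+ NK and 0.914%, 0.925% and 0.752% in CD36- NK. In a bulk sample, fewer cells of a type and less RNA per cell cannot be told apart, which holds for every value here.

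**Figure D1:**
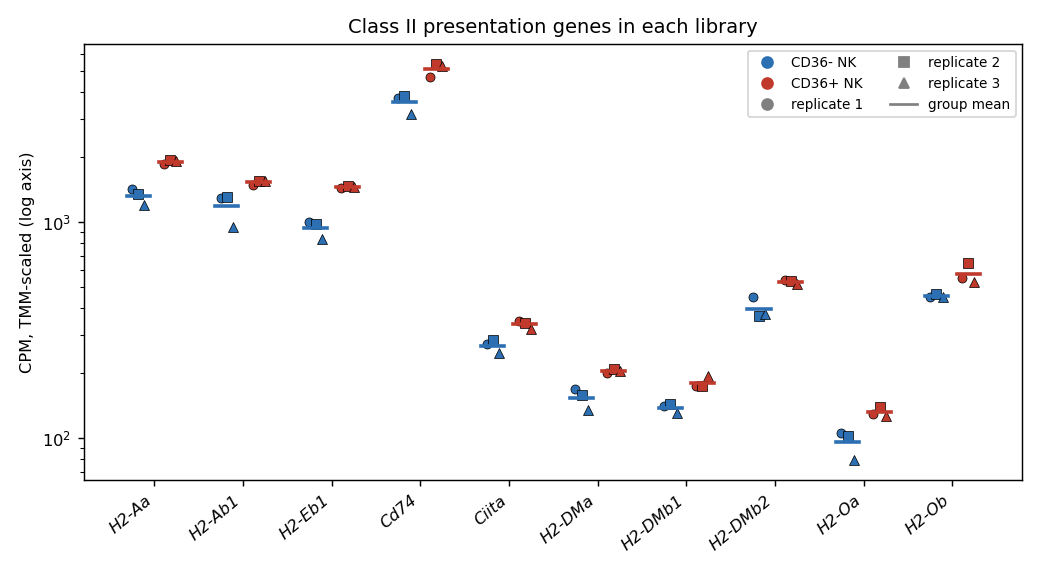
CPM (log axis) of the 10 class II genes in each of the 6 libraries; symbols give the replicate and bars the group mean. Every CD36+ NK point lies above every CD36- NK point of its gene, and CD36- NK replicate 3 is the lowest of its group in 9 of the 10 genes.

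Among the classical chains, H2-Eb1 differed most. H2-Eb1 (17: 34524841 to 34535648 in the table's coordinates) was at 1437, 1460 and 1446 CPM in CD36+ NK and at 998, 982 and 838 CPM in CD36- NK. The CD36+ NK libraries stood close together, with a coefficient of variation of 0.817%. The log2 fold change was 0.62 ± 0.10 (SE, n = 3 per group), with an adjusted p of 0.0120 by edgeR, which is a fold of 1.54 with a 95% interval of 1.31 to 1.82. H2-Aa (17: 34501718 to 34506797) was at 1845, 1944 and 1922 CPM against 1427, 1344 and 1201 CPM. Its groups were apart, at a log2 fold change of 0.52 ± 0.10 with an adjusted p of 0.0211 by edgeR. H2-Ab1 (17: 34476663 to 34488393) was at 1478, 1553 and 1544 CPM against 1296, 1307 and 944 CPM. Its groups did not overlap either, but replicates 1 and 2 of CD36- NK lay well above replicate 3, and the log2 fold change of 0.37 ± 0.14 had an adjusted p of 0.149 by edgeR. Without CD36- NK replicate 3 that estimate was 0.22, and it was 0.45 in replicates 2 and 3 alone.

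Cd74 was by far the most abundant member. It (18: 60936920 to 60945724) stood at 4674, 5387 and 5265 CPM in CD36+ NK and at 3732, 3827 and 3151 CPM in CD36- NK. The log2 fold change was 0.52 ± 0.12, with an adjusted p of 0.0350 by edgeR and a fold of 1.43 (95% interval 1.19 to 1.73). Per gene length, the ratio of Cd74 to the sum of the 3 classical chains ran from 1.78 to 1.98 in CD36+ NK and from 1.85 to 1.94 in CD36- NK, so the chaperone and its client chains kept overlapping proportions.

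Ciita (16: 10297923 to 10346282), the transactivator, was at 348, 343 and 320.0 CPM against 272, 285 and 247 CPM. It had the lowest log2 fold change of the 10, 0.33 ± 0.09, with an adjusted p of 0.0684 by edgeR and a 95% interval of 1.08 to 1.47 for the fold. The lowest CD36+ NK library lay above the highest CD36- NK library. Dexi is listed on the opposite strand across 25888 bases of Ciita with 1206 counts over the 6 libraries against 21711 for Ciita, and strand use in the counting is not stated.

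The peptide editor H2-M has 3 genes here. H2-DMa (17: 34338515 to 34358075) was at 201, 209 and 204 CPM in CD36+ NK and at 169, 158 and 136 CPM in CD36- NK, with a log2 fold change of 0.40 ± 0.10 and an adjusted p of 0.0521 by edgeR. It shares 3094 bases with Brd2 on the opposite strand, which holds more counts than H2-DMa. H2-DMb1 (17: 34372046 to 34379204) was at 175, 174 and 194 CPM against 141, 144 and 132 CPM, at 0.38 ± 0.09 with an adjusted p of 0.0383. H2-DMb2 (17: 34362281 to 34370529) was at 540, 533 and 517 CPM against 448, 369 and 376 CPM, at 0.41 ± 0.10 with an adjusted p of 0.0501. The beta chain genes are neighboring near-identical copies, so the division of counts between them is uncertain, and their FPKM ratio ranged from 2.02 to 2.33 in CD36+ NK and from 1.95 to 2.41 in CD36- NK. The summed CPM of the 3 editor genes was nearly the same in each CD36+ NK library, 914 to 916 CPM, and ran from 643 to 759 CPM in CD36- NK.

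Neither gene of H2-O, which inhibits the editor, passed the adjusted test. H2-Oa (17: 34311314 to 34314208) was at 130, 140 and 126 CPM against 106, 102 and 79.1 CPM, with a log2 fold change of 0.46 ± 0.13 and an adjusted p of 0.0614 by edgeR. H2-Ob (17: 34457877 to 34473388) was at 553, 647 and 528 CPM against 452, 463 and 451 CPM, at 0.34 ± 0.10 with an adjusted p of 0.0841. H2-Ob was the member whose CD36- NK libraries varied least, at a coefficient of variation of 1.52%, and whose CD36+ NK libraries spread most, at 10.9%. The ratio of H2-Ob to the H2-M beta chains in FPKM was 0.212 to 0.263 in the first fraction and 0.221 to 0.257 in the second, so inhibitor and editor overlapped in proportion.

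**Figure D2:**
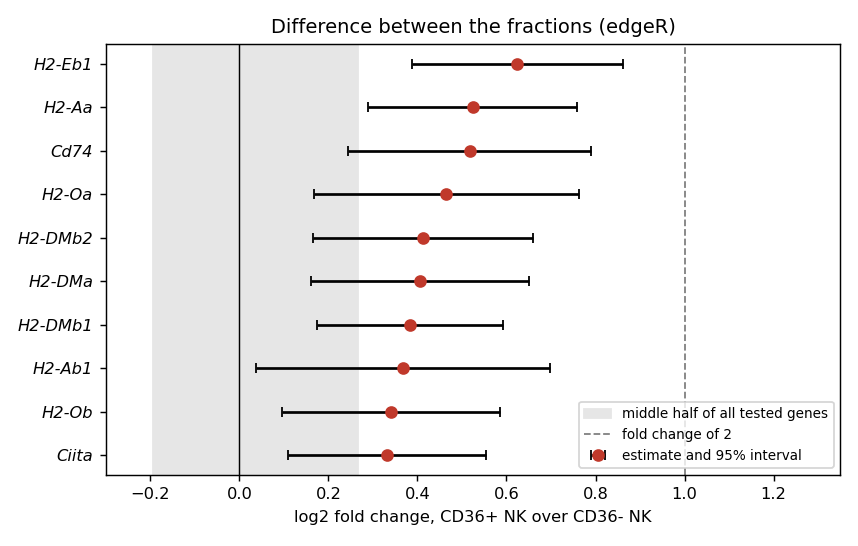
Log2 fold change of each class II gene, CD36+ NK over CD36- NK, with its 95% interval from edgeR; the grey band is the middle range of all tested genes, -0.19 to 0.27, and the dashed line a fold of 2. All 10 intervals lie above 0 and below the dashed line, from Ciita at 0.33 to H2-Eb1 at 0.62.

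Per gene length (FPKM as deposited), the order of the means over the 6 libraries was Cd74, H2-Aa, H2-Eb1, H2-Ab1, H2-DMb2, H2-DMb1, H2-Ob, H2-Oa, H2-DMa and Ciita. Cd74 averaged 2064 ± 120 FPKM (SD, n = 3) in CD36+ NK and 1486 ± 175 FPKM in CD36- NK and ranked between 13 and 23 among the genes of each library. The ranges of H2-Aa at 398 ± 8.4 FPKM and H2-Eb1 at 408 ± 11 FPKM overlapped in CD36+ NK, and they overlapped in CD36- NK at 285 ± 28 and 272 ± 29 FPKM. Within single libraries, H2-Eb1 was above H2-Aa in every CD36+ NK library and below it in every CD36- NK library. H2-Ab1 followed at 279 ± 5.1 and 222 ± 42 FPKM. Its range was apart from that of H2-Eb1 in CD36+ NK and overlapped with it in CD36- NK, but H2-Ab1 was below H2-Eb1 in every library. H2-DMb2 at 181 and 140 FPKM, H2-DMb1 at 81.7 and 64.4 FPKM, and H2-Ob at 61.2 and 49.6 FPKM were each apart from their neighbors in both groups. H2-Oa at 37.0 and 27.6 FPKM, H2-DMa at 29.0 and 22.5 FPKM, and Ciita at 26.1 and 21.3 FPKM closed the order, with ranges of neighbors overlapping in CD36- NK and apart in CD36+ NK. Within every library these genes kept this order.

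**Figure D3:**
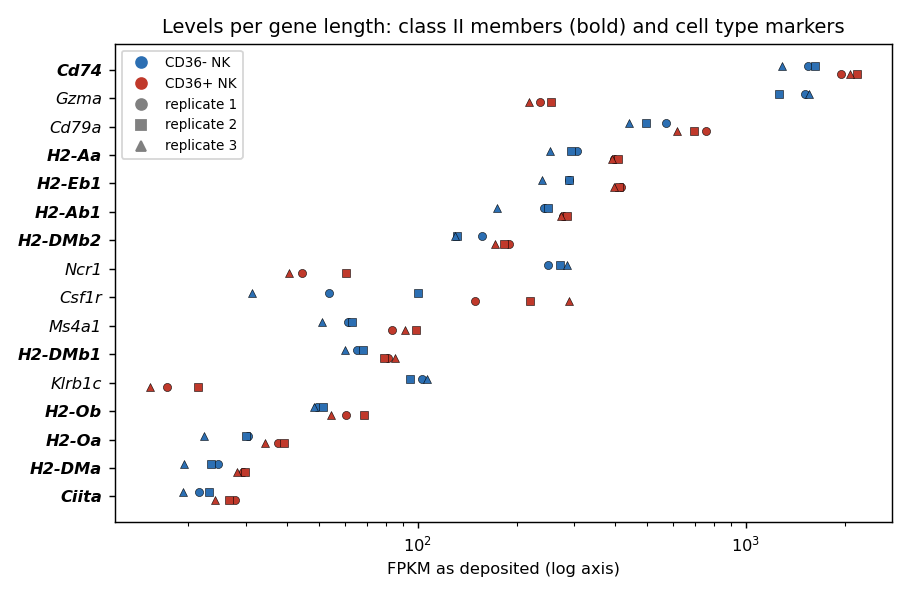
FPKM (log axis) of the class II genes, in bold, and of markers of B cells (Cd79a, Ms4a1), NK cells (Gzma, Ncr1, Klrb1c) and macrophages (Csf1r) in each library. Cd74 stands above every marker shown in CD36+ NK, and the NK cell markers are the rows in which CD36- NK lies far to the right.

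Proportions between the chains were also taken per gene length. The ratio of H2-Eb1 to H2-Ab1 in FPKM was 1.5, 1.45 and 1.44 in CD36+ NK and 1.19, 1.16 and 1.37 in CD36- NK, where replicate 3 came nearest to the CD36+ NK range. The ratio of H2-Aa to H2-Ab1 was 1.43, 1.43 and 1.42 against 1.26, 1.18 and 1.45, where CD36- NK replicate 3 lay above the CD36+ NK range. These ratios were chosen with the values known and were not tested. Gm20513 is listed on the opposite strand across 2204 bases of H2-Eb1, but with 188 counts over the 6 libraries against 86052 for H2-Eb1.

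The other class II chains add to the members. H2-Eb2, a further beta chain gene of the region, was at 109, 118 and 110.1 CPM against 83.7, 86.9 and 71.9 CPM, with a log2 fold change of 0.47 ± 0.10 and an adjusted p of 0.0289 by edgeR. H2-Ea, the I-E alpha chain gene, is not functional in C57BL/6 mice. It had 0, 1 and 0 counts in CD36+ NK and 3, 1 and 0 in CD36- NK and did not pass the filter.

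The class II region of chromosome 17 also holds genes that are not class II chains. Between H2-Oa and H2-Eb2, over 249 kb, 15 genes were tested, of which 9 are class II genes and 6 are not. The 9 class II genes were all higher in every CD36+ NK library. Of the 6 others, none had an adjusted p under 0.05 by edgeR and 1, Gm20513 at 0.51 ± 0.25, did not overlap between groups. Of all tested genes, 5.07% were higher at an adjusted p under 0.05 and 17.0% were higher without overlap. Tap1 and Tap2 encode the transporter that loads class I molecules, and their log2 fold changes were 0.12 ± 0.09 and -0.11 ± 0.09. Psmb8 and Psmb9, subunits of the immunoproteasome, were at 0.00 ± 0.10 and 0.17 ± 0.11, and Brd2, a chromatin reader, at -0.05 ± 0.10. Over a list of 9 non-class II genes of the wider region, the median log2 fold change was 0.01 and 0 were called, against 5.96% of all tested genes. Notch4, a Notch receptor, was at 1.00 ± 0.46, with an adjusted p of 0.223 by edgeR and overlapping groups. Pbx2, a homeobox gene, was at 0.15 ± 0.08 with an adjusted p of 0.264, and was higher in CD36+ NK without overlap.

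**Figure D4:**
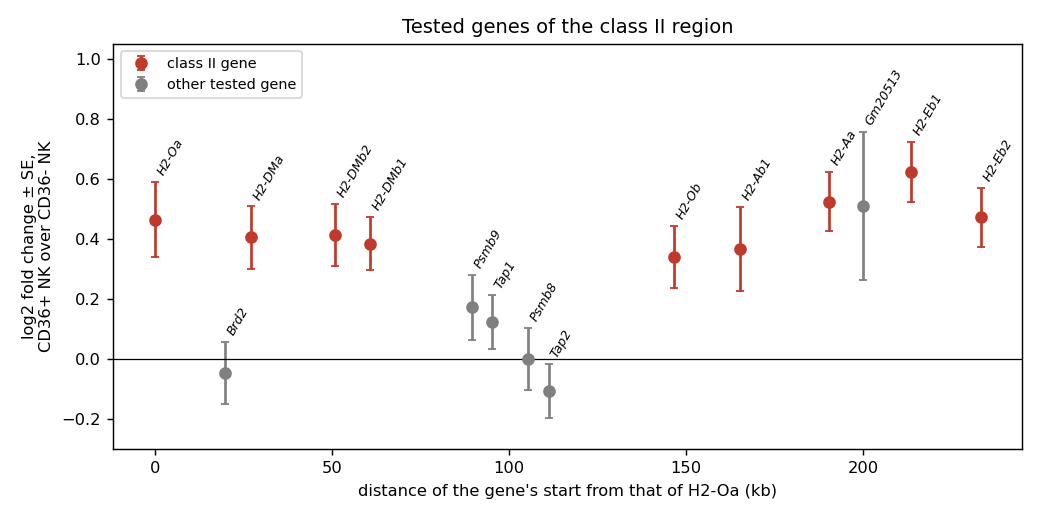
Log2 fold change (± SE) of the 15 tested genes of the class II region against the distance of their start from that of H2-Oa in kb. The 9 class II genes, in red, lie between 0.34 and 0.62. Tap1, Tap2, Psmb8, Psmb9 and Brd2 lie between -0.11 and 0.17, and Gm20513 lies at 0.51.

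The factors that act on these promoters showed no common direction. Of 7 subunits of RFX, NF-Y and CREB, 0 were called, against 5.96% of all tested genes, and 2 had a positive log2 fold change, with a median of -0.12. Rfx5, the DNA-binding subunit of RFX, was at 76.5, 78.1 and 69.1 CPM in CD36+ NK and 62.7, 56.1 and 59.5 CPM in CD36- NK, without overlap, at a log2 fold change of 0.33 ± 0.09 and an adjusted p of 0.0660 by edgeR. Nfyb, a histone-fold subunit of NF-Y, was at -0.29 ± 0.10 with an adjusted p of 0.103, and Rfxank, the ankyrin-repeat subunit of RFX, was at -0.19 ± 0.10 with an adjusted p of 0.315, and the CD36+ NK libraries of both lay below all CD36- NK libraries.

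Among 9 genes of the signals and factors that induce Ciita, 1 was called, against 5.96% of all tested genes in either direction. The median log2 fold change was -0.02, and 4 of the 9 were positive. Jak1, a kinase of the interferon gamma receptor, was lower, at 601, 562 and 546 CPM in CD36+ NK against 1118, 1048 and 1332 CPM in the other fraction, which is -1.03 ± 0.12 on the log2 scale with an adjusted p of 0.00392 by edgeR. Jak2, on the same list, was at -0.02 ± 0.10 with an adjusted p of 0.929 by edgeR and overlapping groups. Spi1, which encodes PU.1 of myeloid and B cells, was at 0.71 ± 0.13 with an adjusted p of 0.0200. Ifngr2, a chain of the interferon gamma receptor, was at 0.61 ± 0.18 with an adjusted p of 0.0807. Irf1, a factor induced by interferon gamma, was lower in every CD36+ NK library, at -0.25 ± 0.10 with an adjusted p of 0.162.

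Of the endosomal enzymes that process antigens and the invariant chain, all 9 had a positive log2 fold change, with a median of 0.89 and a range of 0.03 to 1.96, and 3 rose by the study's criterion, which 2.98% of tested genes met in that direction. Ctsb, a lysosomal protease, was at 1664, 2350 and 3632 CPM against 555, 1029 and 387 CPM, a log2 fold change of 1.96 ± 0.42 with an adjusted p of 0.0306 by edgeR. Lgmn, which opens antigens after asparagine, rose by 1.74 ± 0.34 with an adjusted p of 0.0231, and Ctsl by 1.26 ± 0.18 with an adjusted p of 0.00717. Ctss, the protease that removes the invariant chain in B cells and dendritic cells, was at 944, 1180 and 1261 CPM against 587, 719 and 418 CPM, at 0.97 ± 0.21 with an adjusted p of 0.0316. Ctsd, an aspartic protease, was at 0.03 ± 0.20. Ctsb and Lgmn were highest in CD36+ NK replicate 3 and lowest in CD36- NK replicate 3, the same libraries in which the summed macrophage list was highest and lowest. The part of the macrophage list in the differences of these enzymes was not tested.

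Of the genes that govern how long class II stays at the surface, Marchf1, the ligase that sends it for degradation, was at 133, 164 and 173 CPM against 95.9, 107 and 83.7 CPM, with a log2 fold change of 0.71 ± 0.14 and an adjusted p of 0.0223 by edgeR. Cd83, which opposes Marchf1, was at 0.55 ± 0.31, and Marchf8 at -0.28 ± 0.22, both with overlapping groups. All 6 costimulatory ligands and receptors had a positive log2 fold change, with a median of 0.80, and 1 was called. Cd86, a ligand of CD28, rose by 1.60 ± 0.32 with an adjusted p of 0.0237. Pdcd1lg2, a PD-1 ligand, was at 0.80 ± 0.20 with an adjusted p of 0.0501, and Cd80, the other CD28 ligand, was at 1.04 ± 0.28 with an adjusted p of 0.0586. Of the 44 tested genes of these pathway lists 5 were called, 4 higher and 1 lower, where 5.96% of all tested genes were called in either direction. The number was 6, 2 and 3 without CD36+ NK replicates 1, 2 and 3 and 2, 7 and 2 without CD36- NK replicates 1, 2 and 3.

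Markers of professional class II presenting cells were present in both fractions and in part differed with the class II genes. All 10 B cell markers had a positive log2 fold change, 9 did not overlap between groups, and 7 had an adjusted p under 0.05 by edgeR, at a median of 0.51. Over all tested genes these shares were 51.9%, 17.0% and 5.07%. By the study's criterion 1 of the 10 was called higher, against 2.98% of all tested genes, namely Cr2, a complement receptor, at 1.04 ± 0.19 with an adjusted p of 0.0206 by edgeR. The summed B cell markers were 5514, 6180 and 5524 CPM in CD36+ NK and 4134, 3969 and 3692 CPM in CD36- NK, and none of them was at 0. Cd79a, a chain of the B cell receptor complex, was at 1088, 1027 and 941 CPM against 825, 700 and 644 CPM, a log2 fold change of 0.49 ± 0.12 with an adjusted p of 0.0457 by edgeR. Ms4a1, which encodes CD20, was at 0.68 ± 0.12 with an adjusted p of 0.0157 by edgeR. The B cell list and the class II genes had medians of 0.51 and 0.41, with CD36- NK replicate 3 the lowest library in both.

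The CPM of the 10 class II genes divided by that of the B cell list was 2.06, 2.01 and 2.18 in CD36+ NK and 2.19, 2.26 and 2.05 in CD36- NK, so the groups overlapped. Taken singly, 8 of the 10 members had overlapping ratios to the B cell list. The share of all tested genes with such an overlap was not taken, so this count is only a description. The exceptions were Ciita, at 0.0555 to 0.0631 against 0.0657 to 0.0718, and H2-Ob, at 0.0955 to 0.105 against 0.109 to 0.122, both lower in CD36+ NK. The part of B cell RNA in the class II differences was not tested beyond these ratios.

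The macrophage and Kupffer cell list differed far more than the class II genes. Its 10 tested genes were all higher in every CD36+ NK library, with a median log2 fold change of 2.89, and 4 were called higher. Over all tested genes these shares were 17.0% and 2.98%. Their sum ran from 2496 to 6103 CPM in CD36+ NK and from 425 to 1530 CPM in CD36- NK. Csf1r, the receptor for the macrophage growth factor, was at 1138, 1726 and 2342 CPM against 411, 748 and 242 CPM, a log2 fold change of 1.89 ± 0.44 with an adjusted p of 0.0378 by edgeR. C1qa and C1qb, chains of complement C1q, were at 2.91 ± 0.77 and 2.87 ± 0.74 with adjusted p-values of 0.0576 and 0.0527. Timd4 was at 0 in CD36- NK replicate 3. Clec4f, which defines Kupffer cells, had 17, 624 and 0 counts in CD36+ NK and 0 in each CD36- NK library, so that replicate 2 stood apart, and Vsig4 had 10, 181 and 6 against 0, 3 and 0. The ratio of the class II genes to this list was 1.98 to 4.56 in CD36+ NK against 5.87 to 17.8 in CD36- NK, without overlap. CD36+ NK replicate 3 had the highest macrophage sum but not the highest class II sum. The part of this list in the class II differences was not tested.

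**Figure D5:**
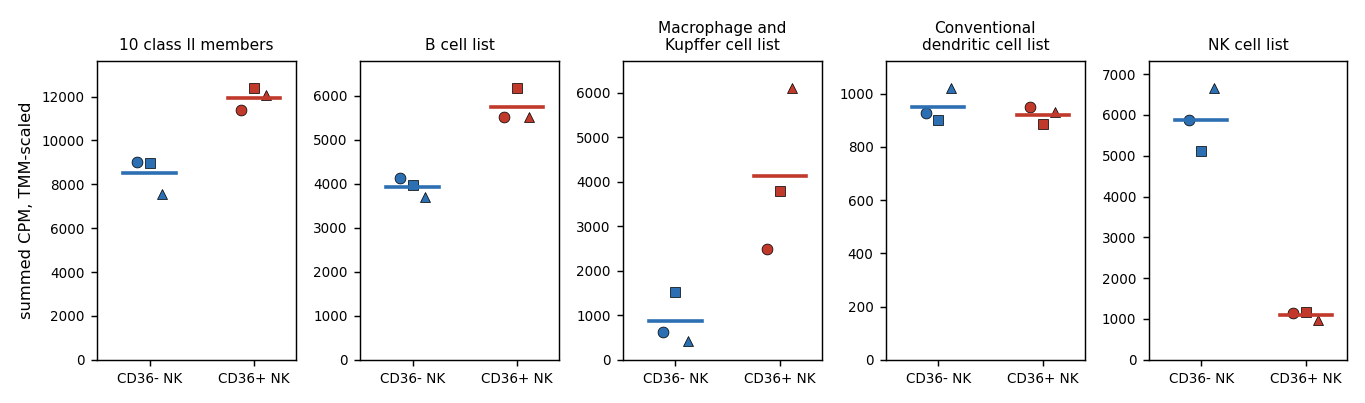
Summed CPM of the 10 class II genes and of 4 marker lists in each library; bars are group means, circles, squares and triangles are replicates 1, 2 and 3, and each axis starts at 0. The class II genes and the B cell list are higher in all 3 CD36+ NK libraries, and the macrophage list spreads widely in CD36+ NK. The conventional dendritic cell list, plotted with Itgax included, overlaps between the groups, and the NK cell list is lower.

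Conventional dendritic cell markers summed to 884 to 950 CPM in CD36+ NK against 901 to 1021 CPM in CD36- NK, so the sums overlapped. Without Itgax, an integrin gene that NK cells also express, the other 9 markers summed to 753, 634 and 675 CPM against 512, 388 and 410 CPM, which is apart and higher in CD36+ NK, as found on taking it out after the values were seen. Of these 9 markers, 3 did not overlap between groups and were higher in CD36+ NK, against 17.0% of all tested genes. Within the list, Xcr1 and Clec9a of the cross-presenting subset rose by 2.46 ± 0.35 and 2.03 ± 0.38 with adjusted p-values of 0.00763 and 0.0204 by edgeR, and Itgax fell by 1.13 on the log2 scale. The other abundant ones, Cd24a and Ccr7, were at 0.75 ± 0.16 and 0.50 ± 0.33 and held most of the sum without Itgax. Cd24a averaged 413 CPM in CD36+ NK and 245 CPM in CD36- NK. Ccr7 averaged 175 and 124 CPM, with overlapping groups. Clec10a and Cd209a, both lectins, were at -0.59 ± 0.24 and -0.17 ± 0.26, and Batf3 and Zbtb46, transcription factors, at 0.38 ± 0.27 and 0.26 ± 0.24, all with overlapping groups. The plasmacytoid list summed to 141 to 174 CPM against 107 to 161 CPM, with 1 of 6 called, Cox6a2, which was lower, against 2.98% of all tested genes. Its most abundant genes, Tcf4, Bst2 and Ccr9, were at 0.19 ± 0.27, 0.38 ± 0.15 and 1.14 ± 0.33. The parts of these lists in the class II differences were not tested.

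The monocyte list summed to 1485 to 1829 CPM against 1186 to 1912 CPM, with Cd14 and Fcgr4 called higher and Ccr2 called lower, against 2.98% of all tested genes in each direction. Ccr2 is also among its most abundant genes, and the others, Plac8 and Chil3, were at 0.47 ± 0.21 and -0.70 ± 0.51. In the sinusoidal endothelial list 4 of 7 genes were tested and 0 called, against 5.96% of all tested genes, with Fcgr2b at 0.25 ± 0.13, Stab2 at 2.79 ± 0.75 and Cdh5 at 1.97 ± 0.61. Of the T cell list, CD36+ NK replicate 1 held 353 CPM and the other CD36+ NK libraries 57.8 and 63.1 CPM, against 145 to 186 CPM in CD36- NK. Among the most abundant of them, Trbc1 was called lower, with 42.0, 24.1 and 14.4 CPM against 96.8, 93.7 and 131 CPM, and Trbc2 was at -0.40 ± 0.81. Cd4 and Cd8a were called higher, again against 2.98% of all tested genes in each direction. Cd4 was at 51.4, 11.3 and 23.9 CPM and Cd8a at 63.2, 8.98 and 16.5 CPM in CD36+ NK, both highest in replicate 1. Cd3e was at 27.0, 0.147 and 0.0831 CPM in CD36+ NK, so that replicate 1 stood apart, although the paper defines NK cells as CD3-. Without that library the median log2 fold change of the class II genes was 0.40. The ILC1 list, innate lymphoid cells near to NK cells, summed to 36.5 to 101 CPM against 103 to 120 CPM with 0 of 6 called, against 5.96% of all tested genes. Of the 6, 4 lay below every CD36- NK library in each CD36+ NK library, and 2, Itga1 and Tnfsf10, had an adjusted p under 0.05 by edgeR without the fold threshold. Of all tested genes, 17.0% and 5.07% were higher by these rules, and the shares that were lower were not taken. Il7r, Tnfsf10 and Itga1 led the ILC1 list at -0.59 ± 0.62, -0.90 ± 0.20 and -0.90 ± 0.14. The parts of these lists in the class II differences were not tested either.

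The genes whose profile over the 6 libraries was most like the mean of H2-Aa, H2-Ab1, H2-Eb1 and Cd74 were ranked by the root mean square difference of centered log2 CPM. The 10 nearest were Rassf3 at 0.0253, H2-Aa at 0.0365, Mtmr4 at 0.0367, Cnpy3 at 0.0390, Cd74 at 0.0393, H2-Eb2 at 0.0395, Fuca1 at 0.0418, Chek2 at 0.0501, Nfkbil1 at 0.0510 and Jpt2 at 0.0543. H2-Aa and Cd74 are part of the mean they were compared with, whereas H2-Eb2 is not. H2-Oa ranked 14 and H2-DMa 17 among all tested genes, while H2-Ob ranked 549 and Ciita 220. The mean profile was 0.20, 0.29 and 0.28 in CD36+ NK and -0.15, -0.17 and -0.45 in CD36- NK on the log2 scale, with CD36- NK replicate 3 the lowest.

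Replicate 1 of each group had a library name of another form than replicates 2 and 3, so the difference was also taken within each form. With every CD36+ NK library above every CD36- NK library, the differences could only be positive, and the first form holds 1 library per group, so they describe sizes and are no check of the direction. H2-Aa differed by 0.37 on the log2 scale in replicate 1 and by 0.61 in replicates 2 and 3, Cd74 by 0.33 and 0.62, and H2-Eb1 by 0.53 and 0.68. Ciita differed by 0.36 and 0.32, and H2-Ab1 by 0.19 and 0.48.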

How the data were processed

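RNA was sequenced from liver cells sorted as CD36+ NK or CD36- NK, in 3 libraries per group. Reads were filtered with Seqtk and aligned with HISAT2 2.0.4, and StringTie gave counts per gene. The raw counts deposited by the authors were the input of every test, and the FPKM values the authors deposited next to them served only to compare levels between genes. The table has 57180 genes, and 2 broken lines were rejoined. Its genome build is not given in the sources used here. The submitters' processing notes list mRatBN7.2, a rat assembly, whereas the gene identifiers are those of mouse, so positions are those of the table and promoter positions are those of GRCm38.p6. How shared reads were divided is not given in the sources used here.

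Depth ranged from 10292480 to 13787189 counts, and the biological coefficient of variation was 20.3%. Genes were kept by filterByExpr with a minimum count of 10 (14761 genes), scaled by TMM and tested with edgeR 4.0.16 (quasi-likelihood, no block, R 4.3.3) with Benjamini-Hochberg adjustment over all of them. A gene was called at an adjusted p under 0.05 and a fold above 2, the study's criterion. A standard error is the size of the log2 fold change over √F. CPM values carry the TMM factors, and log2 CPM for profiles used a prior count of 2. Python 3.11.15 was used for ratios and sequences. The script was tested on simulated counts.

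Groups follow the titles. Replicates of a group differed by a chi-square per degree of freedom of 13.5 to 26.5, so no library was a copy of another. Nothing in the labels says whether libraries came from separate mice, so p-values measure the spread between these libraries. Named were all members, the called genes of each pathway list or the 3 with the lowest p, the 3 most abundant genes of each marker list, Cd36 and the 10 genes most like the classical chains and Cd74. Further genes (Ctss, Ctsd, the region's genes, Ncr1, Klrb1c, Clec4f, Vsig4, Timd4, Xcr1, Clec9a, Cox6a2, Cd14, Fcgr4, Cd3e, Cd8a, Irf1, Clec10a, Cd209a, Batf3, Zbtb46, Cr2) were named after their values were seen. Some genes the rule names are not reported here. The members and lists were chosen with earlier results of these data known. The alternatives were DESeq2 1.42.0, other scalings and filters, blocks, no fold threshold and each library left out.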

Additional observations from a re-analysis of the deposited data

How the results depend on the processing

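The log2 fold change of each class II gene stayed positive in every alternative tried, which the separation of the groups fixes where libraries were left out, and the median over the 10 genes ran from 0.34 (without CD36- NK replicate 3) to 0.48 (replicates 2 and 3 only). None was called above 2-fold in any alternative, and 4 passed without the fold threshold, under which 1552 of all tested genes and 11 pathway genes passed, against 880 and 5 with it. Members with an adjusted p under 0.05 at any fold numbered 4 by edgeR and 9 by DESeq2, 3 with no filter on low counts and 6 where each library had to hold at least 10.

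Same-numbered libraries correlated at 0.31, 0.05 and -0.08 in their deviations, so the replicate numbers were not taken as pairs. A replicate block gave 560 called genes, 2 called pathway genes and 1 member with an adjusted p under 0.05. The next 3 settings were added after seeing the data. Replicates 2 and 3 alone gave 433 called genes, 2 pathway genes and 0 members with an adjusted p under 0.05, and a block on the number in the library name gave 413, 2 and 0. A block on the form and then the number of the name gave 1061 called genes and 4 such members. Leaving out 1 library gave 417 (without CD36- NK replicate 1) to 1160 (without CD36- NK replicate 2) called genes and 2 to 7 called pathway genes. The causes were not tested. The lowest count of one of the 10 genes in a library was 810, for H2-Oa in CD36- NK replicate 3.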
